A study of Mus musculus with 8 samples.

Results

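Molecular chaperones are proteins that help other proteins fold, stay soluble, change partners or be taken apart. The genes described here are the protein-coding genes of the mouse ventral pallidum (VP) table whose symbols begin with the names of the heat shock protein families (Hspa, Hspb, Hspd, Hspe, Hsph and Hsp90), of the J protein families (Dnaja, Dnajb and Dnajc) or of the CCT chaperonin subunits (Cct2 to Cct8, and Tcp1, which is the remaining subunit). Within these families the genes were taken by symbol, whatever their values, and number 68 of the 14353 genes in the table. By family there are 7 HSP70 genes, 3 HSP110 genes, 3 HSP90 genes, 4 small heat shock protein genes, the 2 genes of the HSP60 and HSP10 chaperonin, 7 CCT genes, 4 Dnaja, 10 Dnajb and 25 Dnajc genes, and 3 genes that share a symbol stem but are not chaperones of these families (Hspb11, Hspbp1 and Hspbap1).

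TRAP and INPUT libraries were compared in vGluT2-Cre x RiboTag mice. In these mice the cells that express Cre under the control of the vGluT2 gene, Slc17a6, carry hemagglutinin-tagged Rpl22, a ribosomal protein, and an antibody collects their ribosomes with the mRNA they hold (TRAP). Both fractions, TRAP and INPUT, came from untreated animals that were homozygous for VGluT2-Cre and heterozygous for the tagged Rpl22. The pools were 4 in number (VP1.6, VP2.2, VP2.6, then VP2.11), and each gave 1 TRAP and 1 INPUT library, so n = 4 libraries per fraction. Between 7 and 11 animals were combined per pool, a total of 38 (15 male and 23 female), aged 9 to 12 weeks in VP1.6 and 10 to 16 weeks in the others. These figures follow the labels, whereas the study's methods name more samples and mice and a narrower range of ages. Each library is therefore an average over animals and sexes, TRAP covers every cell in the dissected tissue whose lineage or adult state gave Cre, and INPUT holds neurons and glia alike. The labels call the second fraction Input, whereas the methods also name an unbound fraction where they describe sequencing, and which of them was sequenced could not be settled here.

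The unit is CPM, the reads of a gene scaled to a common library size, which the authors stored as log2 CPM after TMM scaling. The vGluT2 gene Slc17a6 was higher in TRAP (143 against 25.9 CPM, log2 ratio 2.55). Of the 5 pan-neuronal genes examined, all were higher in TRAP without the pool in the fit and 4 with it, and their summed level ran from 19041 to 27473 CPM in TRAP and from 5480 to 10591 CPM in INPUT. Of 5 astrocyte markers 4 were lower in TRAP in both fits (summed level 150 to 253 CPM in TRAP, 343 to 502 CPM in INPUT), as were 4 of 5 oligodendrocyte markers (900 to 1631 against 3506 to 3807 CPM), and none of these markers was at 0. Mag, the fifth of them, had a log2 ratio of 0.61 and was called higher by fraction alone (limma adjusted p 0.035) but not with pools blocked (0.072). For comparison, 23.2% of all genes tested were higher and 24.8% lower by fraction alone, and 15.4% and 16.8% with pools blocked. The chaperone levels below come from the same libraries as these neuronal and glial markers, and how far they follow the markers was not tested. In such bulk libraries, fewer cells of a type and less RNA per cell cannot be told apart. Depth could be read from steps of whole reads in the TRAP minus INPUT difference of VP2.2 (12.6 M reads in TRAP and 38.3 M in INPUT) and of VP2.6 (12.1 and 24 M). It is unknown in the other pools, where 3 of the 4 libraries are rounded to 3 significant digits. These are INPUT VP1.6 and both libraries of VP2.11. High levels are coarse there, and the CPM printed for them are less exact than their digits. Hsp90aa1 in TRAP VP2.11 and Hsp90ab1 in INPUT VP2.11, for example, share the log2 level 11.90 (3822 CPM).

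As background, HSP70 proteins bind and release exposed stretches of unfolded protein by turning over ATP. J proteins deliver the clients and start that turnover, HSP110 proteins exchange the nucleotide, and HSP90 acts later on nearly folded clients. CCT and HSP60 are ring-shaped chambers, CCT in the cytosol, where actin and tubulin are its best known clients, and HSP60 in mitochondria. Each compartment has its own set, with Hspa5 (BiP) and Hsp90b1 (GRP94) in the endoplasmic reticulum (ER) and Hspa9 (mortalin) and Hspd1 (HSP60) in mitochondria. At nerve terminals the HSP70 encoded by Hspa8 strips clathrin from vesicles together with auxilin (Dnajc6) and keeps SNARE proteins foldable together with cysteine string protein (Dnajc5). Heat and unfolded protein in the cytosol act through heat shock elements in promoters, and unfolded protein in the ER acts in part through ER stress elements.

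Sequence near the gene starts is shown because Hspd1 and Hspe1, which lie on opposite sides in the comparison below, share it, and because the ER stress element picks out ER members that are described together below. Promoter windows (250 bases before each start, RefSeq, GRCm38.p6) were available for 56 of the 68 genes. A heat shock element was searched on both strands as 3 adjacent 5-base units, NGAAN in alternating orientation, and an ER stress element as CCAAT, then 9 bases of any kind, then CCACG. The heat shock element was found in 3 of the 56 genes (5.36%), against 0.511% of the 27025 mouse genes in the promoter set, and the ER stress element in 3 genes (5.36%), against 0.13%. Each match is printed 5′ to 3′ on the strand of the gene as a run of 30 bases with the matched bases in capitals. The first match lies between Hspd1 and Hspe1, which sit head to head on chromosome 1 with RefSeq starts 215 bases apart, so both windows hold the same run of capitals.
Hspd1 and Hspe1, chr1:55088053-55088082, plus strand: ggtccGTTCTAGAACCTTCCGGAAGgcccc
Dnajb6, chr5:29735844-29735873, plus strand: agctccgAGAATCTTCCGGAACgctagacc
Hspa5, chr2:34772020-34772049, plus strand: cttcaCCAATCGGAGGCCTCCACGacgggg
Hsp90b1, chr10:86705632-86705661, minus strand: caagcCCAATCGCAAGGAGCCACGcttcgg
Hsp90b1, chr10:86705527-86705556, minus strand: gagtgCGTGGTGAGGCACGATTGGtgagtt
Dnajc3, chr14:118937822-118937851, plus strand: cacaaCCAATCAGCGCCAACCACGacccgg
By GENCODE M21 the runs of Hspd1 and Hspe1, Dnajb6 and Hspa5 lie within annotated first exons (of Hspd1, of Dnajb6 and the overlapping Gm5129, and of Hspa5), and the Hsp90b1 and Dnajc3 runs lie upstream of any exon. The second Hsp90b1 run holds its element on the opposite strand. A match is a match of letters only, and the lack of one in other windows says nothing about the factors that bind there. A looser form with 2 units was found in 14 of the 56 genes (25%), against 14.4% of all genes.

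Of the 68 genes, 67 were over 1 CPM in at least 3 libraries and were tested. TRAP was compared with INPUT by limma on the log2 values, once with the fraction alone and once with the pool as a block, and a call is an adjusted p under 0.05 over all 14249 genes tested. The size of a change is given as the log2 ratio of TRAP to INPUT, the difference of the mean log2 CPM with its standard error (SE), which neither fit alters. Where a pair of SE or p values follows, the fit by fraction alone comes before the fit with the block. Without the block, 39 members were higher in TRAP (58.2% of those tested, against 23.2% of all genes tested) and 11 were lower (16.4%, against 24.8%). With the block the counts were 29 higher (43.3%, against 15.4%) and 11 lower (16.4%, against 16.8%, a share near that of all genes). All 4 TRAP libraries lay above all 4 INPUT libraries for 34 members (50.7%, against 23.3%) and below them for 11 (16.4%, against 24.4%). These 45 genes have p = 0.029 in the exact two-sided permutation test, the smallest that 4 libraries against 4 allow. The median log2 ratio was 0.58 over the members tested and -0.05 over all genes tested. Libraries of 1 pool deviated from their fraction means in opposite directions (mean correlation across genes -0.661, against 0.222 for libraries of different pools), a pattern under which the fit without the block calls too many genes, so the 40 members called in both fits are the ones described as higher or lower below unless the fit is named. Of these 40, 22 kept both calls with each pool left out in turn, and 18 lost 1 or both with some pool left out: Cct3, Cct5, Cct7, Dnaja2, Dnajb4, Dnajb5, Dnajb6, Dnajb9, Dnajc5, Dnajc14, Dnajc15, Dnajc16, Dnajc19, Dnajc24, Dnajc28, Dnajc30, Hspb6 and Hspe1.

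**Figure D1:**
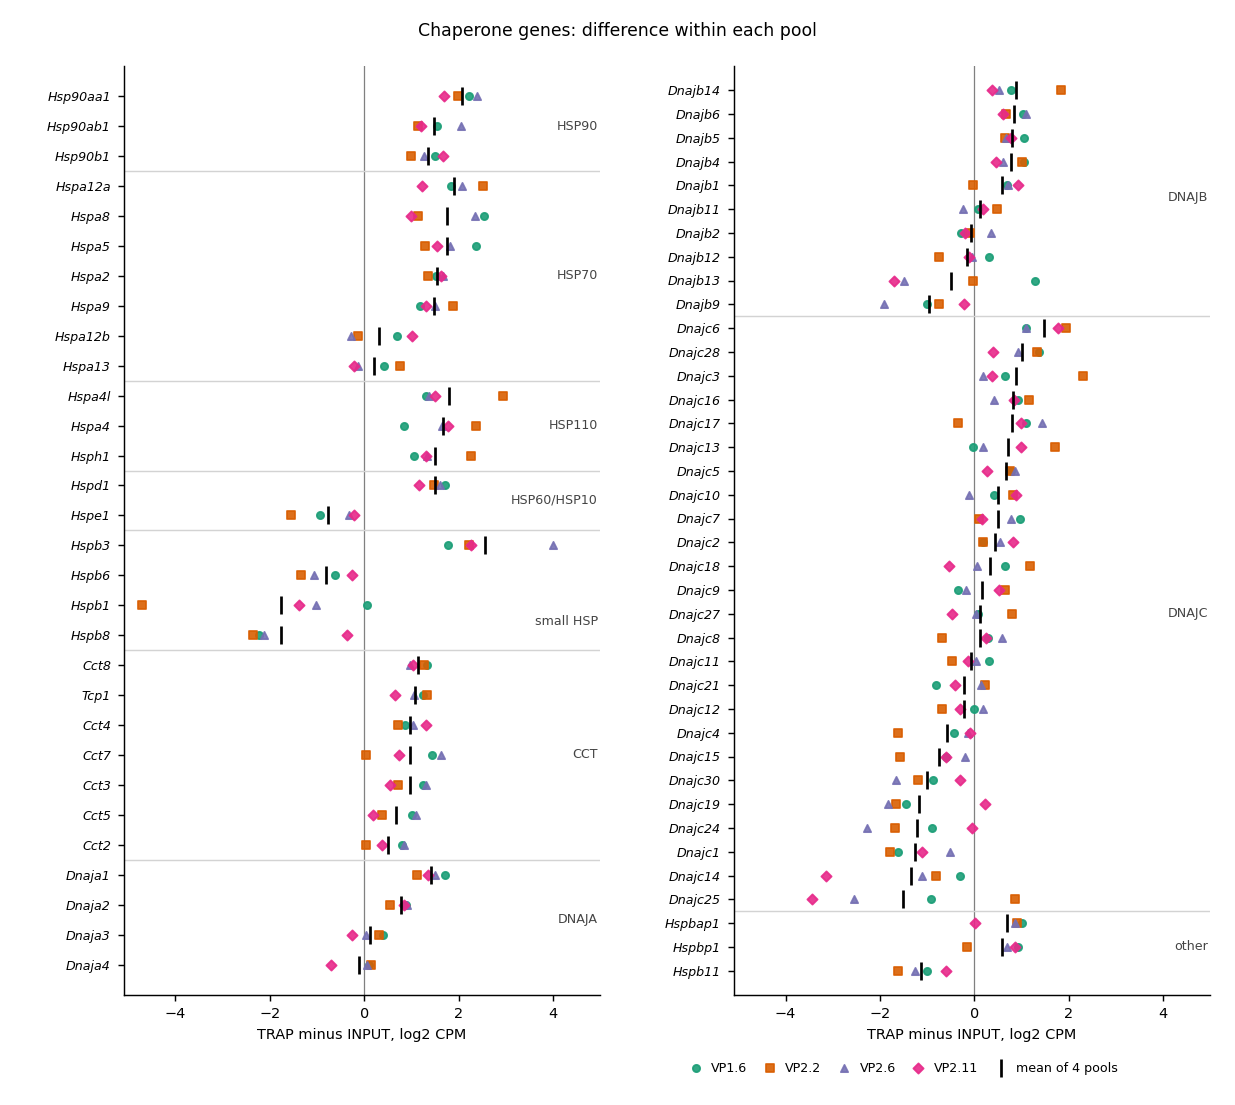
TRAP minus INPUT difference (log2 CPM) of the 68 genes, by family and ordered by mean within it, with 1 coloured marker per pool and a black bar at the mean of the 4 pools. The HSP90, HSP110 and CCT genes and most HSP70 genes lie to the right of 0 in all pools, while the J proteins spread to both sides.

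Members are on the whole abundant genes, and 39 of the 67 were in the highest of 4 equal groups of the genes tested, ordered by mean level. In that group 30 of the 39 members were higher without the block (76.9%, against 38.2% of all genes in the group) and 26 with it (66.7%, against 29.1%). In the next group down, 5 of 13 were higher without the block (38.5%, against 28.3%) but only 1 with it (7.69%, against 18.2%). In the group with the second lowest levels, 4 of 12 were higher without the block (33.3%, against 18.2%) and 2 with it (16.7%, against 11.1%). There 6 of 12 members were lower in each fit (50%, against 24.9% of all genes in the group without the block and 16.9% with it). None of the 3 members in the lowest group was called.

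The HSP90 genes and the leading HSP70 gene made up much of the chaperone mRNA. In TRAP, Hspa8, Hsp90aa1 and Hsp90ab1 together took 58.4% to 65.6% of the summed CPM of the 68 genes, and in INPUT 45.8% to 52.2%. Per kilobase of exon, Hsp90ab1 was the most abundant member in both fractions (3075 CPM per kb in TRAP and 1092 in INPUT) and Hspa8 came next (2168 and 628). Hsp90aa1 had rank 3 in TRAP (1018 CPM per kb) and rank 4 in INPUT (242), where Hspe1 had rank 3 (268). At the other end, Dnajc25 had 0.16 CPM per kb in TRAP and 0.305 in INPUT. The exon length of a gene counts every base that is exon in any of its annotated transcripts. Levels per kilobase, here and below, therefore depend on the annotation when different genes are compared.

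Summed over the 68 genes, the level was 41735 CPM in TRAP VP1.6, 28199 in VP2.2, 41058 in VP2.6 and 33045 in VP2.11. The INPUT sums were 13559, 14352, 12628 and 16415 CPM in the same order. No TRAP sum came near an INPUT sum, but the ratio of the fractions was 3.08 in VP1.6 and 3.25 in VP2.6, against 1.96 in VP2.2 and 2.01 in VP2.11.

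**Figure D2:**
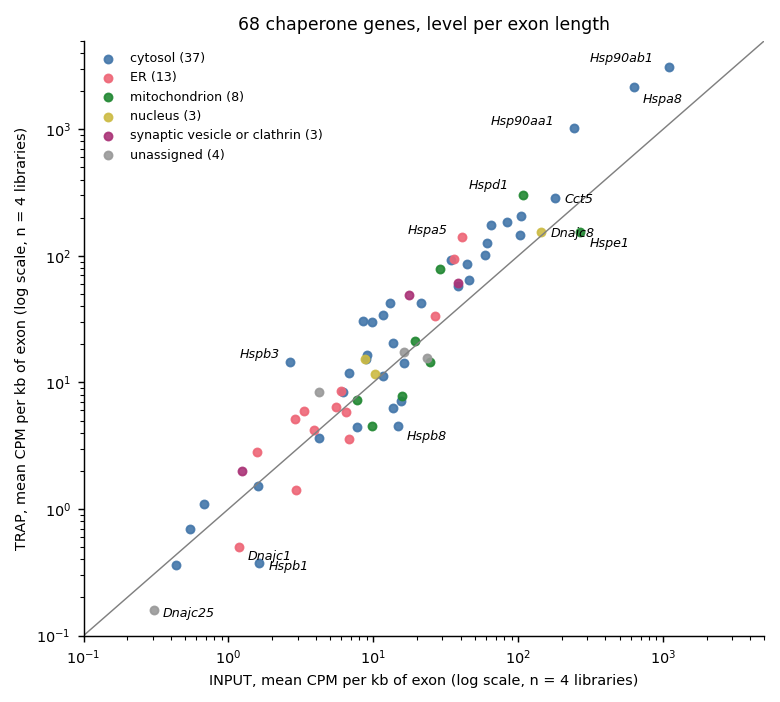
Mean level per kilobase of exon in INPUT (x) and TRAP (y), both on log scales, n = 4 libraries each, for the 68 genes coloured by compartment. The grey line marks equal levels. Most abundant genes lie above the line, with Hspe1 (268 in INPUT, 154 in TRAP) below it and Dnajc8 close to it.

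Among HSP70 genes, Hspa8 (ENSMUSG00000015656, chromosome 9 of GRCm38, 40800984 to 40810087), the constitutive cytosolic HSP70, had 12751, 6300, 11123 and 7132 CPM in TRAP, with the pools in the order given above here and from here on. Its INPUT levels were 2195, 2836, 2201 and 3566 CPM. The lowest TRAP level was thus well above the highest INPUT level, yet TRAP VP1.6 and VP2.6 were clearly above the other TRAP libraries. The log2 ratio was 1.76 (SE 0.27 by fraction alone and 0.35 with pools blocked, limma adjusted p 0.00065 and 0.0019), or 3.38-fold.

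Hspa5 (ENSMUSG00000026864, chromosome 2, 34771970 to 34777547), the HSP70 of the ER and a carrier of the ER stress element above, had 766, 421, 591 and 584 CPM in TRAP and 149, 172, 168 and 199 CPM in INPUT. The INPUT levels were close to each other, and the TRAP levels stood apart from them in every pool. Its log2 ratio was 1.75 (SE 0.18 and 0.23, limma adjusted p 0.0001 and 0.00012). Hspa9, the mitochondrial HSP70, was steady in TRAP (325 to 355 CPM) and lower in INPUT (87.6 to 143 CPM, log2 ratio 1.48, limma adjusted p 0.00014 and 0.00025). So the HSP70s of the cytosol, the ER and the mitochondrion were each more than 2-fold higher in TRAP, at 3.38-fold, 3.37-fold and 2.78-fold.

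Hspa12a, a divergent HSP70 that is abundant in brain, had a log2 ratio of 1.91 (280 ± 26.8 CPM in TRAP and 77.6 ± 24.3 CPM in INPUT, SD, n = 4, limma adjusted p 0.00015 and 6.9e-05). Hspa2, best known from testis, was less abundant (89.7 ± 15.8 and 30.6 ± 3.59 CPM) but had the steadiest difference of all members, 1.35 to 1.66 over the 4 pools. The remaining HSP70 genes did not pass the test in either fit: Hspa12b was low in both fractions (2.57 and 1.99 CPM) and Hspa13, of the ER, had a log2 ratio of 0.21. Neither of the heat-inducible genes Hspa1a and Hspa1b is among the 14353 genes, so they have no values here.

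The 3 HSP110 genes, whose products exchange the nucleotide of HSP70, were all higher. Hspa4l (ENSMUSG00000025757, chromosome 3, 40744495 to 40796103) had 460, 563, 456 and 519 CPM in TRAP and 185, 73.2, 175 and 182 CPM in INPUT. Its log2 ratio was 1.79 (SE 0.27 in both fits, limma adjusted p 0.00061 and 0.00031). Hsph1 (HSP105) had 624 to 709 CPM in TRAP against 147 to 298 CPM in INPUT, a log2 ratio of 1.50, and Hspa4 had 128 to 201 CPM against 32.1 to 71 CPM, a log2 ratio of 1.66. The TRAP levels of Hsph1 and Hspa4l were even (SD 0.09 and 0.15 on the log2 scale) and those of Hspa4 less so (0.27), and the INPUT library of VP2.2 was the lowest of its fraction for each gene. The pool difference was widest in VP2.2, at 2.94 for Hspa4l against 1.32 to 1.51 in the other pools.

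Both cytosolic HSP90 genes were higher. Hsp90aa1 (ENSMUSG00000021270, chromosome 12, 110690605 to 110702728), the more stress-responsive of the pair, had 4565, 3087, 4534 and 3822 CPM in TRAP and 982, 778, 865 and 1176 CPM in INPUT. That gives a log2 ratio of 2.07 (SE 0.19 and 0.27, limma adjusted p 7.7e-05 and 9.2e-05), or 4.21-fold. Hsp90ab1 (ENSMUSG00000023944, chromosome 17, 45567775 to 45573271), the constitutive form, had 9734, 7074, 11297 and 8780 CPM in TRAP and 3327, 3240, 2714 and 3822 CPM in INPUT, a log2 ratio of 1.48 (limma adjusted p 0.00036 and 0.0032). Per kilobase, Hsp90ab1 exceeded Hsp90aa1 in every library, by 1.48 to 1.71 on the log2 scale in TRAP and by 2.04 to 2.45 in INPUT, so the gap was narrower in all 4 TRAP libraries. This comparison was picked after the values were seen and carries no test.

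Hsp90b1 (ENSMUSG00000020048, chromosome 10, 86690209 to 86705509), the HSP90 of the ER, had 404, 293, 361 and 458 CPM in TRAP and an almost fixed INPUT level (144, 146, 150 and 143 CPM). Its log2 ratio was 1.36 (SE 0.15 and 0.22, limma adjusted p 0.00012 and 0.00043). Its levels varied more between the TRAP libraries (SD 0.27 on the log2 scale) than between the INPUT libraries (0.03).

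**Figure D3:**
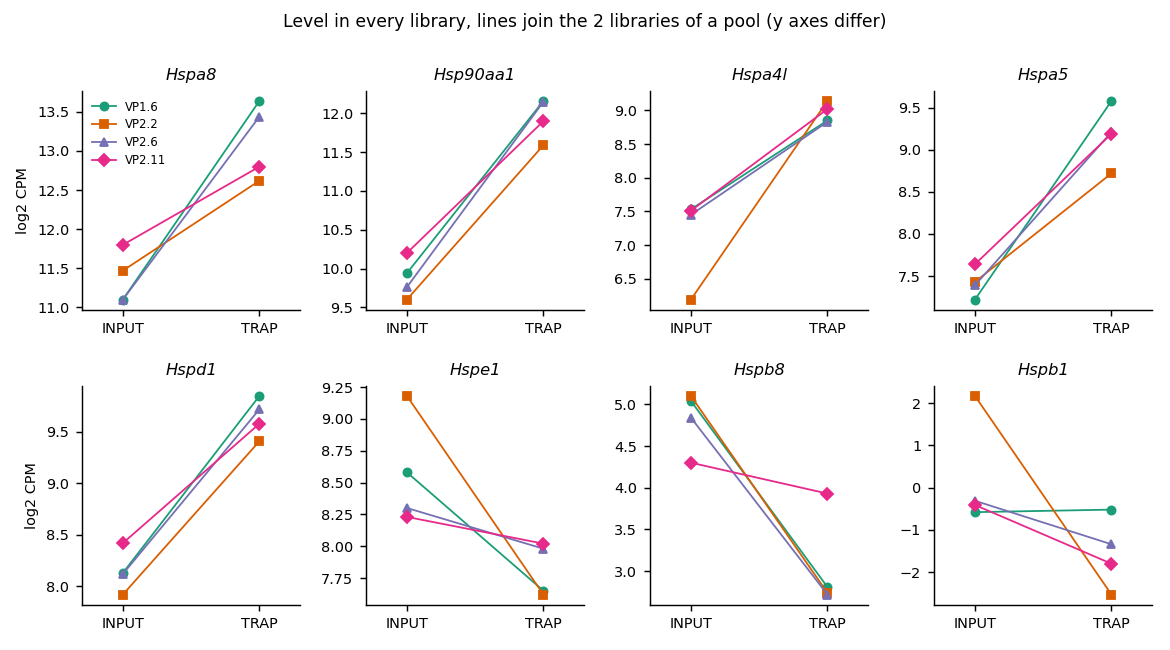
Level (log2 CPM) of 8 members in every library, with a line joining the INPUT and TRAP libraries of each pool and a separate y axis for each gene. Hspa8, Hsp90aa1, Hspa4l, Hspa5 and Hspd1 go up in each pool, Hspe1 and Hspb8 go down in each pool, and Hspb1 has 1 INPUT library, VP2.2, far above the others.

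The 2 partners of the mitochondrial chaperonin, which share the promoter sequence printed above, lay on opposite sides. Hspd1 (ENSMUSG00000025980, chromosome 1, 55077835 to 55088243), the HSP60 ring, had 925, 680, 845 and 765 CPM in TRAP and 280, 243, 278 and 343 CPM in INPUT. Its log2 ratio was 1.49 (SE 0.15 and 0.22, limma adjusted p 9.6e-05 and 0.00027). Hspe1 (ENSMUSG00000073676, chromosome 1, 55088132 to 55091307), the HSP10 lid of the same complex, had 200, 197, 252 and 260 CPM in TRAP and 383, 579, 316 and 300 CPM in INPUT. The fractions of Hspe1 did not overlap, but the distance between them was small in VP2.6 and VP2.11. Its log2 ratio was -0.76 (SE 0.21 and 0.25, limma adjusted p 0.013 and 0.032).

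Per kilobase, Hspd1 exceeded Hspe1 by 0.72 to 1.36 on the log2 scale in the TRAP libraries and was below it in the INPUT libraries, where the difference was -2.10 to -0.65. This contrast, also chosen after the values were seen, has the same sign in every library of a fraction. The call for Hspe1 was lost when a trend on exon length was taken out (log2 ratio -0.07, limma adjusted p 0.70) and when VP1.6 was left out (-0.70, limma adjusted p 0.081), and with the block it was also lost without VP2.2 (-0.49, limma adjusted p 0.080). Both genes have processed copies in the genome that the table lists as genes of their own, Hspd1-ps3 with 40.6 CPM in TRAP and 18.6 in INPUT, and Hspe1-ps2 and Hspe1-ps3 with at most 3.2 CPM. The authors counted unique reads, so reads that fit a gene and a copy alike may be missing from either.

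The other mitochondrial members were J proteins, and none of them was higher. Of the 8 mitochondrial genes, 2 were higher (Hspa9 and Hspd1) and 4 lower (Hspe1, Dnajc15, Dnajc19 and Dnajc30) in both fits, with a median log2 ratio of -0.40. With the block, 15.4% of all genes tested were higher and 16.8% lower. Dnajc19, part of the motor that pulls proteins into the matrix, had 11.8 to 31.1 CPM in TRAP and 26.5 to 46.8 CPM in INPUT (log2 ratio -1.17, limma adjusted p 0.0075 and 0.011), but its TRAP library of VP2.11 was above its own INPUT library, by 0.23. Without the block, its adjusted p rose to 0.058 without VP1.6, 0.054 without VP2.2 and 0.058 without VP2.6, and with the block to 0.056 without VP2.6. Dnajc30, which works beside the respiratory chain, was lower in each pool (9.28 to 16.4 against 20.4 to 29.5 CPM, log2 ratio -1.01, limma adjusted p 0.0025 and 0.012), and with the length trend removed its log2 ratio was -0.39 (adjusted p 0.12). With VP2.6 left out and the block its limma adjusted p was 0.10. Dnajc15, a relative of Dnajc19, had a log2 ratio of -0.74 (limma adjusted p 0.012 and 0.031), and of -0.46 without VP2.2 (limma adjusted p 0.013 and 0.078). Dnaja3 and Dnajc11 passed in neither fit (0.12 and -0.07).

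CCT folds newly made actin and tubulin, and its subunits are present in equal numbers in each ring. By fraction alone all 7 CCT genes were higher, and 6 with pools blocked, with a median log2 ratio of 0.96 and a range of 0.51 to 1.15. Of all genes tested, 23.2% were higher by fraction alone and 15.4% with pools blocked. Tcp1, the alpha subunit, had 576 to 711 CPM in TRAP and 241 to 367 CPM in INPUT (log2 ratio 1.07, limma adjusted p 0.00042 and 0.0027). Cct8 was the highest at 1.15, and Cct2 the lowest at 0.51, where the limma adjusted p was 0.016 by fraction alone and 0.096 with pools blocked. Every CCT gene had all 4 TRAP libraries above all 4 INPUT libraries, and per kilobase Cct4 was the lowest and Cct5 the highest in both fractions (42.3 and 288 CPM per kb in TRAP, a ratio of 6.8, and 21.4 and 180 in INPUT, a ratio of 8.43). The order between these ends was not the same, since Cct8 exceeded Cct2 in TRAP (186 and 147 CPM per kb) and was below it in INPUT (83.8 and 103). The subunit gene Cct6a is listed as a processed transcript and so is no member, and its log2 ratio was 0.99. Cct7 was the least even over pools (SD of the difference 0.73), followed by Cct5 (0.46) and Cct2 (0.39). In VP2.2 the fractions were almost level for Cct7 and Cct2 (a difference of 0.03 for each). Cct5 and Cct7 lost both calls without VP1.6 (limma adjusted p 0.071 and 0.06 by fraction alone) and without VP2.6 (0.077 and 0.061).

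Prefoldin hands unfolded actin and tubulin to CCT. Of its 6 subunits, none was higher and 3 were lower in both fits (Pfdn2 at -1.40, Pfdn4 at -0.97 and Pfdn5 at -1.50), against 16.8% of all genes tested lower with the block. The median of the 6 was -0.72. These are short genes, and with the length trend removed the median was -0.12, and 2 subunits were higher and 2 lower by fraction alone, whereas the CCT median was 0.99.

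The J proteins, which choose the clients and the place of action of HSP70, lay on both sides of 0. Of 39 genes, 17 were higher and 7 lower without the block, and 10 higher and 7 lower with it, with a median log2 ratio of 0.13. Of all genes tested, 23.2% were higher and 24.8% lower without the block, and 15.4% and 16.8% with it. The lower J proteins were thus a smaller share than among all genes without the block, and near that share with it. The difference between the fits lay mostly in Dnajc, where the higher genes were 10 by fraction alone and 4 with the block, and 6 were lower in both.

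Dnaja1, the general J partner of Hspa8, had the highest CPM of them, with 1184 to 1759 CPM in TRAP and 537 to 609 CPM in INPUT, a log2 ratio of 1.42 (limma adjusted p 0.00012 and 0.00061). Per kilobase it stood beside Dnajc8, a J protein of the nucleus, in TRAP (175 and 154 CPM per kb) and below it in INPUT (64.9 and 144). Dnaja2, its close relative, was also higher (0.79), while Dnaja4 was low in both fractions (5.5 and 5.77 CPM). Dnajb1, the J partner most closely tied to heat shock, had 51.3 to 79.3 CPM in TRAP and 40.7 to 52.2 CPM in INPUT. The fractions overlapped because of VP2.2, where the difference was -0.02, and the log2 ratio of 0.58 passed without the block (limma adjusted p 0.012) but not with it (0.067). Without VP2.6, VP1.6 or VP2.11 it did not pass in the fit without the block either (limma adjusted p 0.083, 0.079 and 0.055). Among the other cytosolic Dnajb genes, Dnajb4, Dnajb5 and Dnajb6, the last a suppressor of polyglutamine aggregation and a carrier of a heat shock element match, were higher at 0.78 to 0.85. Dnajb2, by contrast, had a log2 ratio of -0.06.

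The J proteins of nerve terminals were higher. Dnajc6, the brain auxilin, had 256 to 360 CPM in TRAP and 71.9 to 123 CPM in INPUT, a log2 ratio of 1.47 (SE 0.19 and 0.23, limma adjusted p 0.00026 and 0.00035). Dnajc5, cysteine string protein, had 375 to 455 CPM and 238 to 313 CPM, a log2 ratio of 0.67 (limma adjusted p 0.0026 and 0.03). Its adjusted p with the block was 0.14 without VP1.6, 0.16 without VP2.6 and 0.076 with the exon length trend removed (log2 ratio 0.49). Dnajc13, which acts on endosomal clathrin, was called without the block alone (0.71, limma adjusted p 0.043 and 0.084), and without VP2.2 its log2 ratio was 0.38 (limma adjusted p 0.19).

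J proteins and partners of the ER divided. Of the 13 ER genes, 6 were higher by fraction alone (Hspa5, Hsp90b1, Dnajb14, Dnajc16, Dnajc3 and Dnajc10) and 4 with the block, since Dnajc3 (0.88, limma adjusted p 0.031 and 0.051) and Dnajc10 (0.50, 0.041 and 0.13) no longer passed. The size for Dnajc3 rested largely on VP2.2, where the difference exceeded that of the other pools (0.18 to 0.66), and without that pool its log2 ratio was 0.41 (limma adjusted p 0.056). Dnajb14 likewise had 0.88, and 0.56 without VP2.2, where it kept its call (limma adjusted p 0.0054 and 0.042). In both fits 3 ER genes were lower. Among all genes tested, 23.2% were higher and 24.8% lower by fraction alone, and 15.4% and 16.8% with the block. Dnajb9, a J protein of the ER lumen that is induced with Hspa5 when unfolded protein builds up, had 5.13 to 12 CPM in TRAP and 13.9 to 19.4 CPM in INPUT (log2 ratio -0.97, limma adjusted p 0.010 and 0.027). Its adjusted p was 0.079 with the length trend removed, 0.059 without VP1.6, and 0.21 without VP2.6 with the block. Dnajc1, a J protein of the ER membrane, had 4.72 to 7.92 CPM and 11.2 to 16.2 CPM (-1.26, limma adjusted p 0.0014 and 0.008), and its log2 ratio was -1.67 with the length trend removed.

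Dnajc14, an ER J protein known for binding dopamine receptors, owed much of its size to 1 library. Its log2 levels in TRAP were 3.81, 3.52, 3.25 and 1.08, and in INPUT 4.12, 4.34, 4.34 and 4.23. TRAP VP2.11 lay far below the other TRAP libraries, although those were below the INPUT libraries as well. The log2 ratio of -1.34 (limma adjusted p 0.043 and 0.016) was -0.74 without VP2.11, where it passed by fraction alone and not with pools blocked (limma adjusted p 0.013 and 0.077). The other pools left out gave the opposite: without VP1.6, VP2.2 and VP2.6 the adjusted p was 0.054, 0.084 and 0.11 by fraction alone, and 0.0089, 0.029 and 0.021 with pools blocked. Dnajc24, a J protein used in making diphthamide, was lower in each pool but by only 0.04 in VP2.11 (log2 ratio -1.22, limma adjusted p 0.0097 and 0.015). It lost its call with the length trend removed (-0.50, limma adjusted p 0.20) and, in the fit without the block, without VP2.2 (0.065) and without VP2.6 (0.056), as with the block (0.062 and 0.11).

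The small heat shock proteins, which hold unfolding proteins in solution without ATP, were scarce in both fractions, at 23.6 to 44 CPM summed in TRAP and 38.5 to 61.6 CPM in INPUT. Hspb8 (ENSMUSG00000041548, chromosome 5, 116408491 to 116422864) had 7.04, 6.69, 6.6 and 15.2 CPM in TRAP and 32.9, 34.4, 28.6 and 19.7 CPM in INPUT. The fractions did not overlap, though VP2.11 brought them close from both sides. The log2 ratio was -1.77 (SE 0.29 and 0.33, limma adjusted p 0.00087 and 0.0012), the lowest called among members. Bag3, the co-chaperone that works with Hspb8, was higher in TRAP (log2 ratio 1.01, limma adjusted p 0.0077 and 0.034). Hspb6 (HSP20) was lower as well (-0.81, limma adjusted p 0.005 and 0.038), but with the length trend removed its log2 ratio was -0.38 (limma adjusted p 0.085).

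Hspb3 went the other way and had the largest fold of the called members. It had 8.37, 8.38, 12.7 and 16.1 CPM in TRAP and 2.45, 1.8, 0.801 and 3.34 CPM in INPUT, a log2 ratio of 2.56 (SE 0.42 in both fits, limma adjusted p 0.00085 and 0.00053). Its product is best known from muscle. Hspb1 (HSP27) was the member that failed the filter, with 0.697, 0.173, 0.396 and 0.287 CPM in TRAP and 0.668, 4.51, 0.809 and 0.754 CPM in INPUT. Only INPUT VP2.2 exceeded 1 CPM, so it was not tested. The Hspb11 product belongs to intraflagellar transport in cilia, and this gene was lower in each pool (14.7 ± 1.98 CPM in TRAP, 32.2 ± 5.48 CPM in INPUT, SD, n = 4, log2 ratio -1.12, limma adjusted p 0.00056 and 0.0041).

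Exon length moved with the difference between fractions. Over all genes tested, the median log2 ratio went from -0.98 in the first of 10 equal groups ordered by exon length, the shortest, to 0.49 in the last. Across the 67 members tested, which share the libraries and so are not independent, Spearman's rho between log2 ratio and exon length was 0.25, against 0.41 across all genes tested. The 29 members higher in both fits had a median of 5030 exon bases and the 11 lower members 2299. After removal of the exon length trend from each library, 38 members were higher without the block (56.7%, against 27.3% of all genes tested) and 6 were lower (8.96%, against 19.7%). The 6 were Hspb8, Hspb11, Dnajc1, Dnajc14, Dnajc15 and Dnajc19. Of the 40 members called in both fits, 32 kept both calls with the trend removed, and 8 lost 1 or both (Hspe1, Hspb6, Dnajb4, Dnajb9, Dnajb14, Dnajc5, Dnajc24 and Dnajc30). Hspb3, with 781 exon bases, lay furthest from the trend, and its log2 ratio was 3.58 with the trend removed. The part of exon length in the differences of single genes was not tested beyond this fit.

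**Figure D4:**
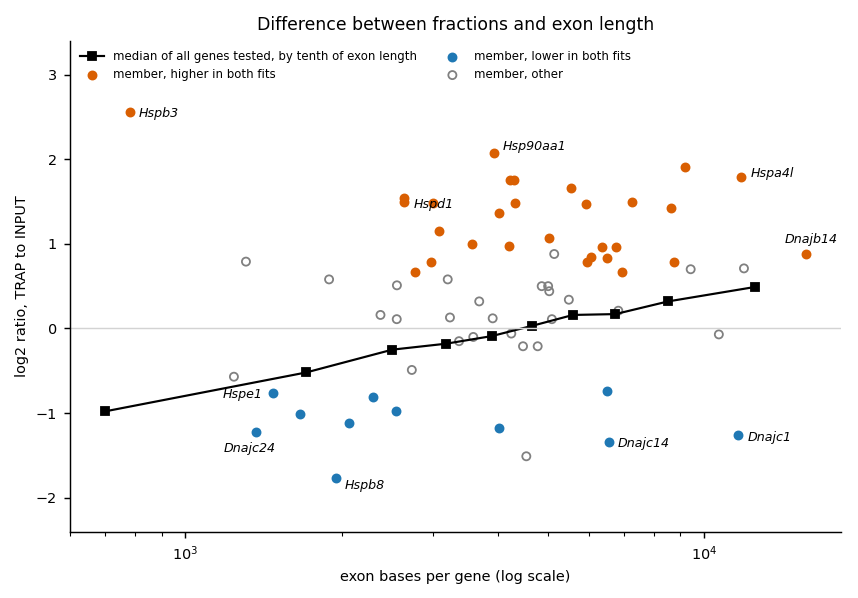
Log2 ratio of TRAP against INPUT (y) by exon bases per gene (x, log scale) for the 67 members tested, coloured by call in both fits, with black squares at the median of all genes tested in 10 equal groups by exon length. The medians climb from -0.98 to 0.49, most lower members lie among the shorter genes, and Dnajc1 is a long gene below 0.

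The spread between pools was compared with that of other genes of like level. The SD over the 4 pools of the TRAP minus INPUT difference had a median of 0.46 over the members tested and 0.57 over all genes tested. In the highest of the 4 groups by level the medians were 0.39 for members and 0.43 for all genes, and in the next groups down they were 0.49 and 0.46, then 0.64 and 0.60. In the lowest group, which held 3 members, they were 1.39 and 1.02. Within the fractions, the median SD of members was 0.24 in TRAP and 0.24 in INPUT (0.32 and 0.26 over all genes tested). Since the 2 libraries of a pool deviated in opposite directions, the SDs of the fractions are not independent of each other. The 6 members with the widest spread were Hspb1 (SD 2.06), Dnajc25 (1.89), Dnajb13 (1.39), Dnajc14 (1.25), Hspb3 (0.97) and Dnajc24 (0.97). Hspb1, Dnajc25 and Dnajb13 had levels near 1 CPM in both fractions, where few reads stand behind a value. For Dnajc25 the log2 differences ran from -3.44 to 0.86, and for Dnajb13 from -1.70 to 1.28, so neither had a direction that held over pools.

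**Figure D5:**
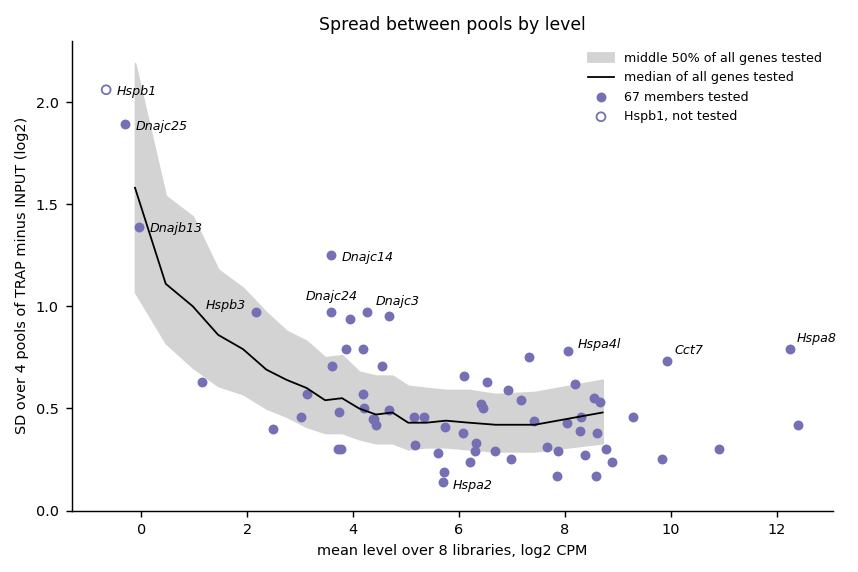
SD over the 4 pools of the TRAP minus INPUT difference (y, log2) by mean level over the 8 libraries (x, log2 CPM) for the 68 members, with the median (line) and middle 50% (grey band) of all genes tested in 20 bins of level. The widest members sit at the low end beside other low genes, while Hspa8 (SD 0.79) and Cct7 (0.73) are wide for their level and Hspa2 (0.14) is narrow.

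The order of the pools differed between members. For 19 of the 67 members tested (28.4%), among them Hspa8, Hsp90aa1, Hsp90ab1, Hspa5, Hspd1, Dnaja1, Cct2, Cct3, Cct5 and Cct7, the difference was larger in both VP1.6 and VP2.6 than in both VP2.2 and VP2.11, and for 8 (11.9%), Hspa4 and Hspa4l among them, the order was turned. Over all genes tested the shares were 20.3% and 20.3%. This split of the pools is the one that the summed levels of the members show above, so the counts describe it and carry no test. The pools differ in their numbers of mice and, for VP1.6, in age, and these cannot be told apart here.

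Genes induced by stress were compared library by library within each fraction. Libraries of the same pool deviated from their fraction means in opposite directions (mean correlation across genes -0.661). A deviation given here or in the next paragraph is therefore not independent of the partner library, and whether it measures stress was not tested. The list of heat shock inducible genes held 8 that were tested, 7 of them higher in TRAP without the block and 6 with it, and Hspe1 lower. In TRAP VP2.2, 7 of the 8 lay below the mean of their fraction (median deviation -0.29 on the log2 scale), in TRAP VP1.6 6 lay above it (0.20), and in INPUT VP2.11 6 lay above it (0.24). The deviations in the other libraries had medians of -0.13 to 0.07. These shifts were smaller than the median difference of 1.46 between the fractions for this list. Over all 67 members tested, the largest median deviation of a library was -0.18, also in TRAP VP2.2.

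The 7 genes induced by unfolded protein in the ER did not form 1 group. Hspa5 and Hsp90b1 were higher in both fits, Dnajc3 and Dnajc10 without the block alone, and Dnajb9 was lower, while their library medians deviated by -0.21 to 0.19. A further list held 8 genes, for stress transcription factors and for a protein that binds heat shock factor. Of these, Ddit3 (CHOP), which rises when ER stress persists, was lower in TRAP (-1.46, limma adjusted p 0.00017 and 0.00041). The gene of the binding protein, Hsbp1, was lower as well (-0.84, limma adjusted p 0.0044 and 0.019). The call of Hsbp1 was lost with the length trend removed (-0.29, limma adjusted p 0.14). Hsf2, a heat shock factor, was higher without the block alone (0.40, limma adjusted p 0.043 and 0.19). Hsf1 itself had a log2 ratio of -0.11, Atf4 of -0.39 and Xbp1 of -0.03, none called in either fit. Among 6 genes that respond to dissection, Fos was higher in TRAP in both fits (1.53), and the group stood 0.51 above its mean in TRAP VP2.11, against -0.23 to -0.03 in the other TRAP libraries.

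Partners of the chaperones outside the family names were examined by list. For comparison, 23.2% of all genes tested were higher and 24.8% lower without the block, and 15.4% and 16.8% with it. Of 12 HSP90 co-chaperones, 6 were higher by fraction alone and 5 with pools blocked (Ppid at 1.16, Chordc1 at 1.10, Fkbp4 at 0.89, Stip1 at 0.86 and Cdc37 at 0.72), and none was lower. Of 8 HSP70 co-chaperones, 3 were higher and 4 lower without the block, and Bag3 and Bag6 higher and Bag1 (-1.16) and Stub1 (4.48 against 8.81 CPM) lower with it. Of 12 other ER folding genes, 8 were higher and 2 lower without the block and 6 and 1 with it, with Herpud1 at 1.85, Pdia4 at 1.24 and Pdia3 at 1.16, and Manf at -0.86. In mitochondria, 6 of 10 folding and protease genes were higher by fraction alone and 5 with pools blocked, led by Clpx (1.96) and including Trap1, the mitochondrial HSP90 (0.91), and Clpp (-0.82) and Hscb (-0.84) were lower in both. With the length trend removed, the calls of Clpp (-0.04, limma adjusted p 0.82), Hscb (0.10, 0.58) and Cdc37 (0.46, 0.18) were lost in both fits, that of Bag1 was at its limit (-0.43, limma adjusted p 0.05 and 0.14), and those of Stub1 and Manf were lost with pools blocked (0.14 and 0.063). Of the 55 genes outside the families, markers included, that were examined here and called in both fits, 35 kept both calls with each pool left out. Among those named here, Bag3, Stub1, Cdc37, Stip1, Fkbp4, Trap1, Hscb, Manf, Hsbp1 and Pfdn4 did not. These lists were drawn up with earlier results of the same data known.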

How the data were processed

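TRAP and INPUT libraries of 4 VP pools were compared. The authors aligned reads with STAR 2.5.1a to an Ensembl release of GRCm38, counted unique reads per gene, scaled libraries by TMM in edgeR and deposited log2 CPM values, with their own fold changes and p-values, which were not used. Of 14398 entries, 45 repeats of identical content were dropped. Exon lengths and positions came from GENCODE M21, promoters from RefSeq (both GRCm38).

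Tests covered genes exceeding 1 CPM in 3 or more libraries and used limma 3.58.1 (R 4.3.3, trend) on the log2 values, with Benjamini-Hochberg adjustment over 14249 genes. The fit without the pool was set as the main fit, and the pool block is printed beside it because the labels give both libraries of a pool the same name and the methods take them from 1 homogenate. The labels give no difference between pools other than in the number, sex and age of their animals. The values show further differences, in depth and in the trend on exon length. Both fits were tested on simulated data. Depth came from whole-read steps in the low values, since the table holds no totals, and precision is limited by it. Replicates are pools of mice, so p-values measure the spread between pools.

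The gene families and lists were chosen with earlier results of these data known, and within the families members were taken by symbol. Named are Hspa8, Hsp90aa1, Hsp90ab1, Hspa4, Hspa4l, Hsph1, Hspb1, Dnaja1, Dnajb1, Dnajc5, Dnajc6, Hspa5, Hsp90b1, Hspa9, Hspd1, Hspe1 and Tcp1, the 8 highest and 8 lowest members called in both fits, and the 6 with the widest spread over pools. Other members were named after their values were seen. The microglial, vascular, ependymal, GABAergic, striatal and cholinergic marker lists were also summed. Alternatives covered the block, library weights, filters, a pseudocount of 1, centring, exon length and each pool left out.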

Additional observations from a re-analysis of the deposited data

Results flagged for a closer look

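In groups of 4 libraries, 5 values of named members lay so far from the other 3 of their fraction that the gap exceeded Dixon's critical value. Among the 60 groups examined, about 3 would pass by chance if the genes had been picked without regard to their values. Some were picked for a wide spread or an extreme ratio in these same data, and libraries of a pool were correlated. That number is therefore a rough guide only. Dnaja1 in INPUT VP2.11 had a log2 level of 9.25, above the others at 9.07 to 9.10. Dnajb1 in INPUT VP2.2 had 5.71, above 5.35 to 5.39. Hspa4l in INPUT VP2.2 had 6.19, below 7.45 to 7.53. Hspb1 in INPUT VP2.2 had 2.17, above -0.58 to -0.31. Hspb8 in TRAP VP2.11 had 3.93, above 2.72 to 2.81. Of the 5 values, 3 came from INPUT VP2.2, which was also the INPUT library furthest from its fraction mean for 47.8% of members and 47.4% of all genes tested. With VP2.2 left out the log2 fold changes of Hspa4l and Dnajb1 kept their direction.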

How the results depend on the processing

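Without the block, the number of members higher in TRAP was 38 to 39 with other weights, filters, the pseudocount, centring or the exon length trend removed, and 28 to 36 with each pool left out. It was 29 with the replicate block, 35 with the block and weights, and 31 with the block and the length trend removed. The number lower was 10 to 12 with other weights, filters, the pseudocount and centring, but 6 with the exon length trend removed, with or without the block, and 6 to 11 with each pool left out. With the block and each pool left out, a choice made after seeing the data, 19 to 33 members were higher (19 without VP1.6, 23 without VP2.6) and 6 to 9 lower. The median SD over pools stayed between 0.34 and 0.50. Of the 29 tested members on the list of named genes under the processing, none changed sign. Some other members with log2 ratios near 0 did, such as Dnaja4 (-0.10, and 0.11 without VP2.11). The replicate block ended the calls of 10 members. Of the 29, Dnajb1 alone lost its call to it (limma adjusted p 0.067). Library weights added Dnajc25 (-1.58, limma adjusted p 0.015), as did leaving out VP2.2 (-2.30, 0.026). Low depth limits Hspb1, Dnajc25 and Dnajb13 most.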

Other observations

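Exon length ordered some libraries differently from others. In INPUT VP2.2, the deviation of a gene from its fraction mean had a Spearman's rho with exon length of -0.47 across the 67 members tested and -0.54 across all genes tested, against 0.09 to 0.40 and 0.05 to 0.43 in the other INPUT libraries. In TRAP VP2.2 it was 0.41 across members and 0.35 across all genes, and in TRAP VP2.11 -0.40 and -0.08. Members share these libraries, so the values describe them only.

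Of the further marker lists, 5 of 5 striatal projection neuron genes were lower in TRAP in both fits (summed level 181 to 278 CPM in TRAP and 461 to 650 CPM in INPUT), as were 3 of 5 microglial genes (16.6 to 25.5 against 57.5 to 92.3 CPM). Summed levels of 4 endothelial and mural genes (31.6 to 57.1 and 32.3 to 45.5 CPM), 3 GABAergic genes (918 to 1573 and 584 to 1394 CPM), and 3 cholinergic genes (87.8 to 137 and 39.4 to 84.1 CPM) overlapped or nearly met between the fractions, but single genes of these lists passed in both fits: Flt1 was higher in TRAP (log2 ratio 2.37), and Slc32a1 (-1.26) and Slc18a3 (-1.75) were lower, while Chat was higher without the block alone (0.70). The sum of 2 ependymal genes was 0.751 to 6.18 CPM in TRAP and 4.34 to 11 CPM in INPUT, and 1 of them, Rarres2, was lower in both fits (-2.60, limma adjusted p 0.019 and 0.021). The calls of Slc18a3, Slc32a1 and Rarres2 were lost with some pool left out. Beside these counts, 15.4% of all genes tested were higher and 16.8% lower with the block.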
